A study of Mus musculus with 3 samples.

Results

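The 10 genes described here carry out iron handling and the lipid chemistry of ferroptosis in mouse lung cells. They were given by name as Tfrc, Fth1, Ftl1, Ncoa4, Slc40a1, Slc3a2, Gpx4, Acsl4, Lpcat3 and Sat1 and all 10 are among the 31054 features of the files. Their transcripts were counted in dissociated lung by 10x 3′ single-cell RNA sequencing, in 3 libraries with 1 library per group. The groups are wild-type mice that were not irradiated, wild-type mice that were irradiated, and conditional knockout mice that were irradiated and also given a drug. The last is called the knockout plus drug library below, and in it genotype and drug cannot be told apart. The sources used here do not give the knocked-out gene, the Cre driver, the drug, the radiation dose, the time after it, the age of the mice or the number of mice per library, so the knockout could not be checked.

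Cells take up iron as transferrin through the transferrin receptor, store it in ferritin shells, and export it through ferroportin. Free ferrous iron drives the oxidation of membrane lipids that contain polyunsaturated fatty acids, and cells die by ferroptosis when glutathione peroxidase 4 cannot keep pace with that oxidation. In lung, macrophages take up iron from inhaled particles and from red cells. Iron also sets the use of several of these messengers after transcription, because iron regulatory proteins bind a stem-loop, the iron-responsive element, when iron is scarce. In a 5′ untranslated region (UTR) the bound protein blocks translation, and in the 3′ UTR of Tfrc it protects the messenger, so that transcript counts of ferritin and ferroportin are not protein levels.

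The element was searched in the annotated UTRs on the sense strand, as a C, then 5 bases, the loop CAGTGN with any last base but G, and 5 bases that pair with the first 5. It was found in 4 of the 10 genes, and these are shown because they divide the genes into those under iron control at the 5′ and at the 3′ end. Sequences are from GENCODE vM21 on GRCm38, 5′ to 3′, with the loop in capitals. The 5′ UTR elements lie at chr19:9982732-9982761 (plus strand) in Fth1, chr7:45459778-45459807 (minus strand) in Ftl1 and chr1:45925464-45925493 (minus strand) in Slc40a1.
Fth1 5′ UTR: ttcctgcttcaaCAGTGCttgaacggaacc
Ftl1 5′ UTR: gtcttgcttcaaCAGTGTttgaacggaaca
Slc40a1 5′ UTR: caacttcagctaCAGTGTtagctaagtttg
The 3′ UTR of Tfrc held 4 matches on the plus strand, of which the first and the last are printed, at chr16:32631219-32631248 and chr16:32631710-32631739.
Tfrc 3′ UTR, first: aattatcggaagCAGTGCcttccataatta
Tfrc 3′ UTR, last: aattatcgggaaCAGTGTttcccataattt
Of 20580 genes with a 5′ UTR 0.112% held a match there, and of 20962 genes with a 3′ UTR 0.477% did. A match describes the letters only.

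Cells with at least 250 genes and at most 15% mitochondrial UMIs (unique molecular identifiers, 1 per counted transcript) were kept, which left 13091 non-irradiated, 5805 irradiated wild-type and 9886 knockout plus drug cells, at medians of 4899, 5706 and 6070.5 UMIs. Classes were set by marker UMIs: T cells (Cd3d, Cd3e and Cd3g, 2 or more), B cells (Cd79a, 2 or more), C1q cells (C1qa, C1qb and C1qc, 5 or more, a macrophage marker set), endothelial cells (Pecam1 and Cdh5, 2 or more), fibroblasts (Col1a1 and Col1a2, 2 or more) and epithelial cells (Epcam, 1 or more, without Ptprc). In the order non-irradiated, irradiated wild-type and knockout plus drug, which is kept for every set of 3 values below, there were 1859, 2674 and 5103 T cells, 1425, 571 and 763 B cells, 69, 11 and 52 C1q cells, 2945, 401 and 695 endothelial cells, 3950, 424 and 963 fibroblasts, and 448, 118 and 190 epithelial cells. Levels are the gene's UMIs relative to all UMIs of the class and library, on the CPM scale, with exact 95% Poisson intervals in brackets. These intervals cover counting error only, and with 1 library per group no difference between groups has a replicate check or a test.

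The libraries differed in ways that touch these genes. Cells with a UMI of 4 Y-linked genes were 0.084%, 31.7% and 0.384% of kept cells, so the irradiated wild-type library holds cells of male mice and the others hardly any, and Acsl4 and Sat1 lie on the X chromosome. Free RNA differed too, since Sftpc, a gene of type 2 alveolar cells, stood at 2669, 84.2 and 290.3 CPM in T cells. The 4 haemoglobin genes summed to 1773, 1326 and 1597 CPM in T cells and 786, 160 and 2544 CPM in B cells. They summed to 163, 11.7 and 56.0 CPM in C1q cells and 2204, 271 and 164 CPM in the endothelial class. Fibroblasts had 1907, 3239 and 153 CPM and epithelial cells 1145, 33.1 and 2233 CPM. The part of haemoglobin RNA in the member values was not tested. Pairs of libraries shared 25 to 46 cell barcodes, and 12.2%, 7.35% and 7.72% of classed cells met more than 1 class rule. In each class and library all markers of that class's own list were detected. The endothelial rule still went against its label after irradiation: the summed endothelial markers of the class were 5763, 1423 and 2170 CPM and the T cell markers, of which 8 of 8 were detected, 361, 1636 and 1831 CPM. Endothelial levels are therefore also given in cells of the class with Cdh5 and without Ptprc, the pan-leukocyte gene, a restriction chosen after the data were seen. It held 2090, 77 and 207 cells with endothelial marker sums of 7680, 9074 and 7449 CPM. The irradiated wild-type C1q class was 11 cells, and 62.5% to 89.1% of its UMIs lay in 3 cells for 7 of the 8 members with more than 1 UMI there, against 58.6% for Slc3a2.

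**Figure D1:**
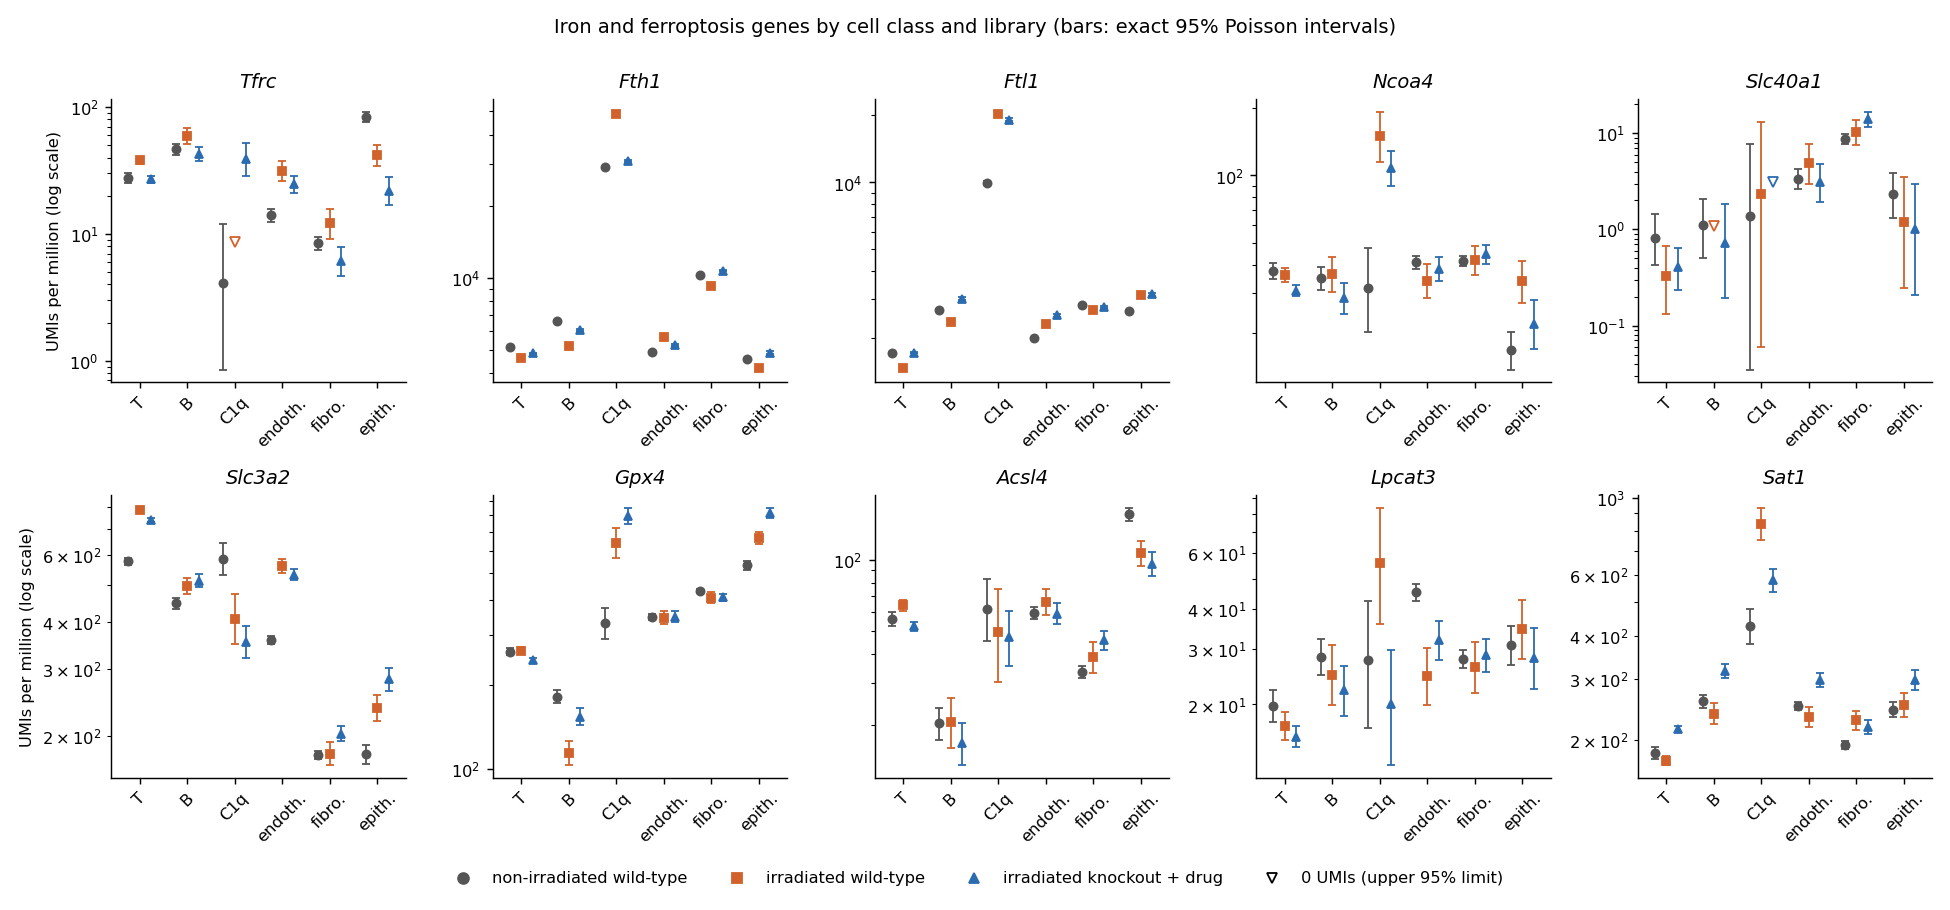
Level of each gene (vertical axis, CPM, log scale) in the 6 cell classes for the 3 libraries. Points are class sums, bars exact 95% Poisson intervals, and open triangles the upper limit where no UMI was counted. Fth1 and Ftl1 stand highest in C1q cells, Tfrc in the non-irradiated library and Acsl4 in all 3 libraries stand highest in epithelial cells, and Slc40a1 is highest in fibroblasts.

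The 10 genes covered very different ranges of level. The ferritin pair Fth1 and Ftl1 together made up 0.606% to 1.35% of all UMIs outside the C1q class and 3.90%, 6.93% and 5.01% within it. Slc3a2, Gpx4 and Sat1 lay between 114 and 842 CPM in every class and library. Tfrc, Ncoa4, Acsl4 and Lpcat3 stayed at or below 155.6 CPM, and Slc40a1 at or below 14.02 CPM, in the whole classes. The 3′ counts carry no length bias of full-length reads, but they do not measure genes with equal efficiency, so levels are compared between cells rather than between genes.

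A difference was called when 30 or more UMIs were counted in the library with more of the gene and the ratio of (CPM + 5) between the libraries reached 1.5. Of 60 combinations of gene and class, 53 reached 30 UMIs in each pair of libraries. In irradiated against non-irradiated wild-type cells 8 of these were higher and 3 lower, and 8 higher and 5 lower with median-of-ratios scaling, whose factors between these libraries were 0.908 to 1.20 by class. In knockout plus drug against irradiated wild-type cells 1 was higher and 3 lower. Both comparisons use the irradiated wild-type library. Without the 3 cells with the most UMIs of the gene in each class and library there were 3 higher and 6 lower calls after irradiation. This takes out 3 of 11 irradiated wild-type but 3 of 69 non-irradiated C1q cells, so these libraries are not treated alike. With every cell thinned to 1000 UMIs there were 3 higher and 5 lower calls. The minimum of 30 UMIs was kept in both, so low counts alone could end a call. Without these changes the calls fell mostly in the 2 classes with the fewest or the most mixed cells. Of the 8 higher calls 5 were in C1q cells and 2 in the endothelial class.

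These counts stand beside the share of all genes called. In T cells 0 of 9 members were called in either comparison, while 3.9% of all genes tested were higher and 10.3% lower after irradiation, and 0.836% higher and 1.36% lower in the knockout plus drug library. In B cells 1 of 9 was lower after irradiation and 0 of 9 were called in the other comparison, beside 3.38% higher and 14.5% lower, and 2.48% higher and 6.87% lower. In fibroblasts the counts were 0 of 10 and, in the knockout plus drug library, 1 of 10 lower, beside 2.11% higher and 3.98% lower, and 2.76% higher and 1.09% lower. In epithelial cells 1 of 9 was higher and 1 lower after irradiation, and 1 of 9 lower in the other comparison, beside 16.7% higher and 11.3% lower, and 4.8% higher and 4.74% lower. In the endothelial class 2 of 9 were higher and 1 lower after irradiation and 0 of 9 were called in the other comparison, beside 12% higher and 26.1% lower, and 5.24% higher and 3.43% lower. In C1q cells 5 of 7 were higher after irradiation, and 1 of 7 was higher and 1 lower in the other comparison, beside 14.9% higher and 24.6% lower, and 23.3% higher and 9.66% lower. The members' median log2 ratio after irradiation was 0.94 in C1q cells, where that of all genes was -0.16. In the other 5 classes it lay between -0.12 and 0.15, with medians of all genes from -0.21 to 0.13.

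**Figure D2:**
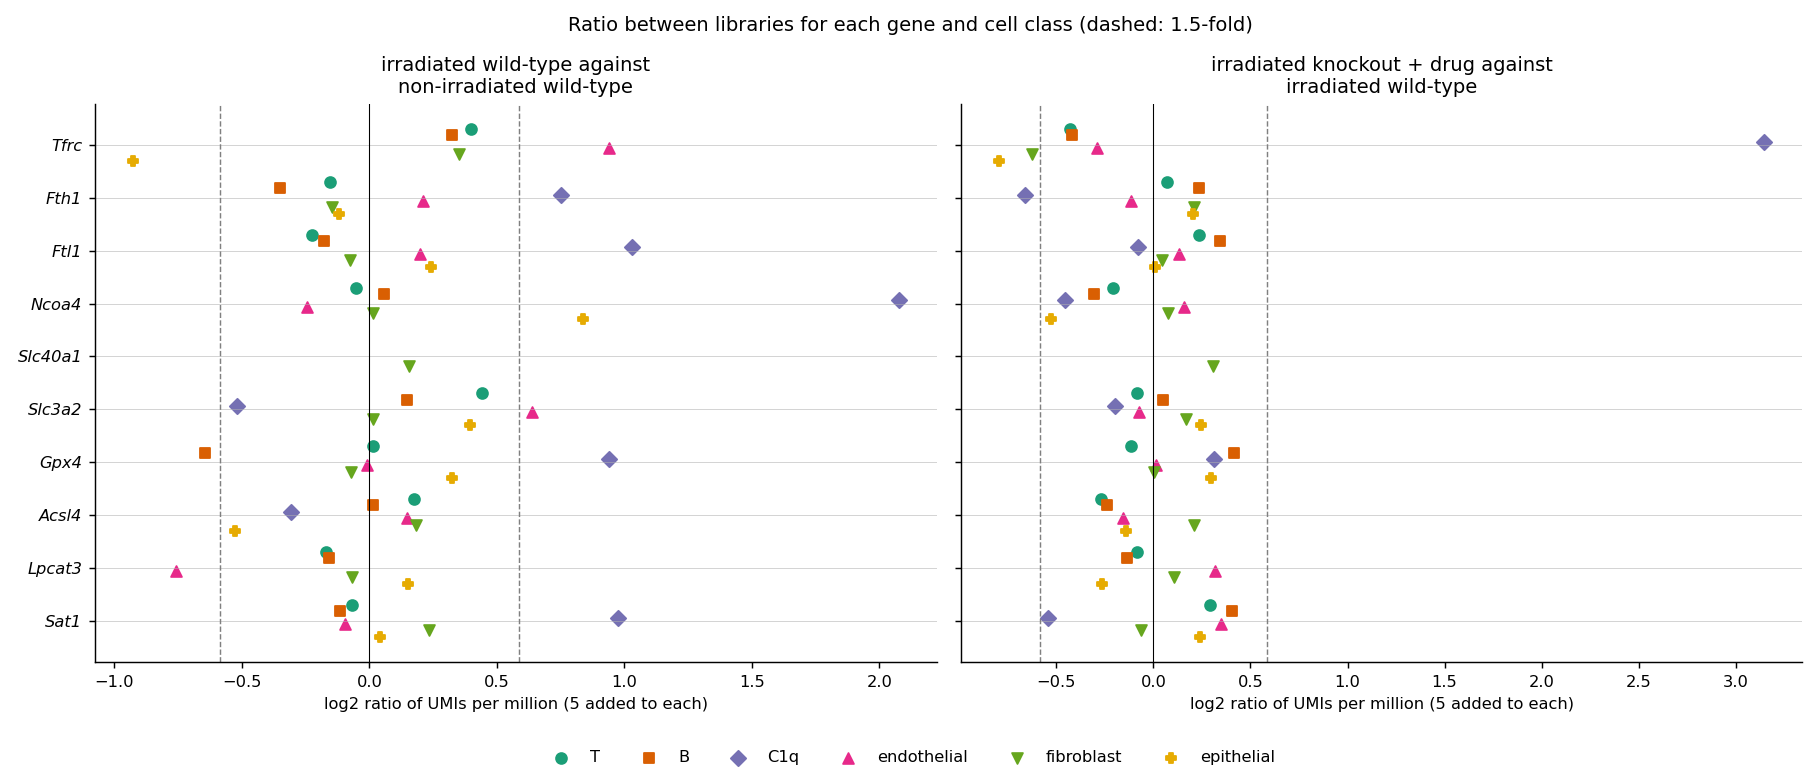
Log2 ratio of CPM, with 5 CPM added to each side, for each gene (rows) and class (symbols) with at least 30 UMIs in the higher library; the left panel compares irradiated with non-irradiated wild-type cells and the right panel knockout plus drug with irradiated wild-type cells. Dashed lines mark 1.5-fold. Most points lie between the lines, and those outside on the left are mainly C1q and endothelial symbols.

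Tfrc, on chromosome 16 (ENSMUSG00000022797), encodes the transferrin receptor through which cells take up iron. In epithelial cells it stood at 84.0 (77.0 to 91.4), 41.8 (34.2 to 50.7) and 22.0 (16.97 to 28.0) CPM. The 3 intervals do not overlap: the level was 2.01-fold (1.63 to 2.499) lower in irradiated than in non-irradiated wild-type cells, and lower again in the knockout plus drug library, by 1.90-fold (1.38 to 2.63) against irradiated wild-type. The share of epithelial cells with a Tfrc UMI was 47.3%, 38.1% and 24.7%, and 6.91%, 3.42% and 3.70% once each cell was thinned to 1000 UMIs, so that the thinned share does not separate the irradiated libraries, and the thinned log2 ratio between them was 0.10 in place of -0.80. That thinned ratio came from fewer UMIs than a call needs. In T cells, for comparison, the share with a Tfrc UMI was 2.15%, 3.44% and 2.63% after thinning.

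The epithelial class changed in make-up between the libraries. Cells with 20 or more Sftpc UMIs, the marker of surfactant-making type 2 cells, were 51.6%, 16.9% and 18.4% of the class (231, 20 and 35 cells), and 25, 1 and 4 cells lay between 10 and 40 Sftpc UMIs. Tfrc was 5.96-fold (4.49 to 8.05) higher in these cells than in the other epithelial cells of the non-irradiated library, 5.03-fold (3.33 to 7.69) in the irradiated wild-type and 2.03-fold (1.20 to 3.40) in the knockout plus drug library. Among Sftpc-high cells the levels were 126, 103 and 34.5 CPM, and among the others 21.1, 20.5 and 17.02 CPM. Within Sftpc-high cells the ratio of irradiated to non-irradiated wild-type was 0.816 (0.622 to 1.06), an interval that includes no difference. The knockout plus drug cells stood 2.98-fold (1.90 to 4.78) below the irradiated wild-type cells there, from 29 and 67 UMIs, of which 31.0% and 43.3% lay in 3 cells. Within the other epithelial cells both intervals included 1.

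**Figure D3:**
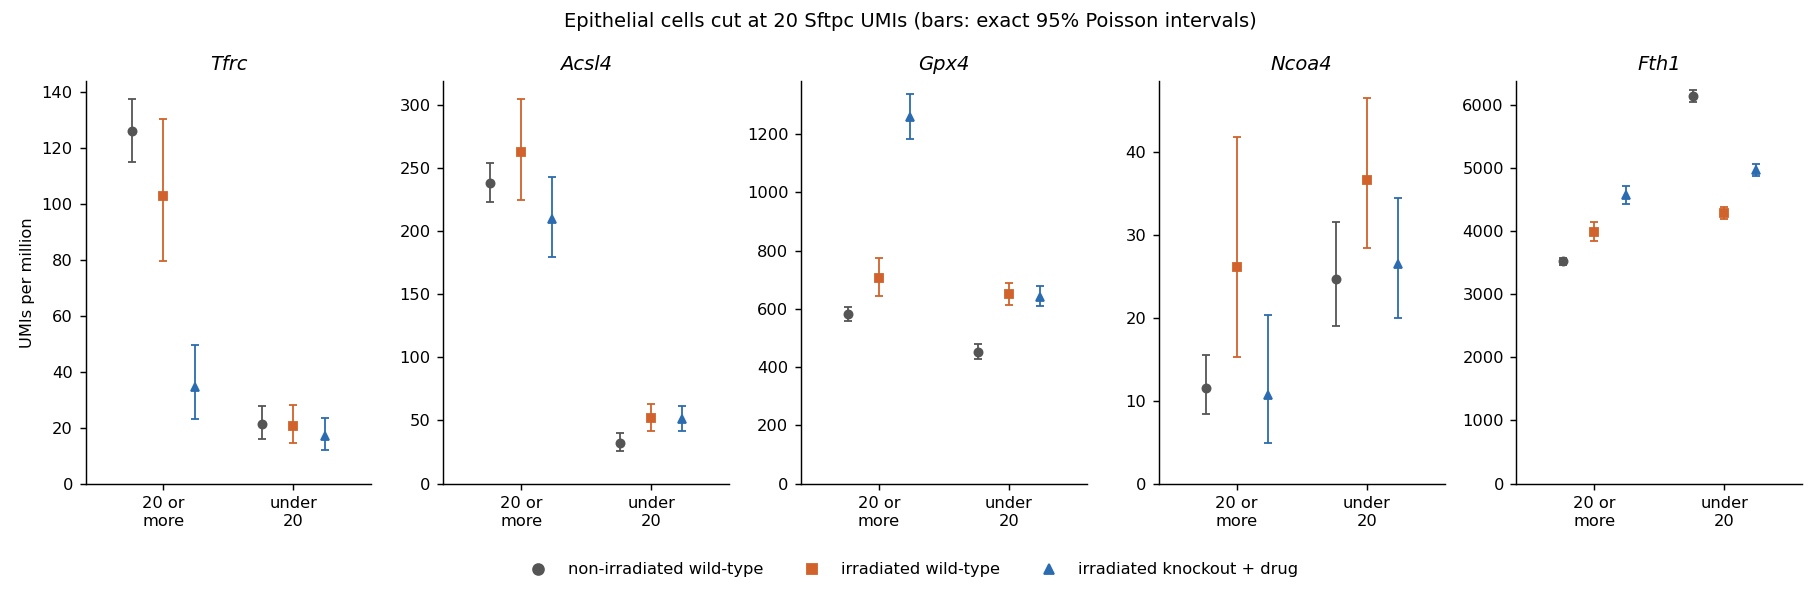
CPM of Tfrc, Acsl4, Gpx4, Ncoa4 and Fth1 (vertical axes, linear from 0) in epithelial cells with 20 or more and with under 20 Sftpc UMIs, for the 3 libraries; bars are exact 95% Poisson intervals. Tfrc and Acsl4 stand higher in Sftpc-high cells of each library, Tfrc at 126, 103 and 34.5 CPM, and Gpx4 reaches 1259 CPM in Sftpc-high knockout plus drug cells.

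Outside the epithelium Tfrc was highest in B cells, at 46.5 (41.9 to 51.4), 59.4 (51.5 to 68.2) and 43.1 (37.8 to 48.9) CPM, and stood at 27.7, 38.1 and 27.0 CPM in T cells. In both lymphocyte classes the irradiated wild-type library had the highest value, by 1.28-fold (1.07 to 1.52) in B cells and 1.38-fold (1.22 to 1.55) in T cells against the non-irradiated library, under the 1.5-fold threshold. The cycling markers Mki67 and Top2a summed to 13.2, 34.8 and 32.6 CPM in B cells and 37.2, 74.5 and 44.8 CPM in T cells. Their part in the Tfrc values was not tested. In the endothelial class Tfrc was called 2.24-fold (1.80 to 2.78) higher after irradiation, at 13.996, 31.4 and 24.7 CPM. In cells with Cdh5 and no Ptprc it stood at 7.23, 12.9 and 5.10 CPM, from only 7 UMIs in each irradiated library, and the ratio was 1.78 (0.697 to 3.80). The cells of the class outside this restriction carried 27.8, 34.5 and 30.1 CPM, close to the levels of T cells.

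Fibroblasts had little Tfrc, at 8.46 (7.52 to 9.49), 12.2 (9.13 to 15.9) and 6.11 (4.64 to 7.90) CPM. The knockout plus drug value was 1.99-fold (1.35 to 2.93) below the irradiated wild-type value, from 58 and 54 UMIs, and is called lower. The log2 ratio was 0.45 with thinned cells in place of -0.63, from under 30 UMIs per library, fewer than a call needs. The 4 haemoglobin genes summed to 1907, 3239 and 153 CPM in fibroblasts, and their part was not tested. In C1q cells 3, 0 and 47 Tfrc UMIs were counted. The knockout plus drug level of 39.3 CPM was at least 5.595-fold higher than the irradiated wild-type level, taking 3 UMIs of that class as its limit, and the exact lower limit of the ratio is 4.37. Of its UMIs 76.6% lay in 3 cells. Without the 3 cells of most Tfrc UMIs in each library it was no longer called. The UMIs then left were under the 30 that a call needs. Over 12 alternative ways of processing the lowest log2 ratio was 1.57, with 20 CPM added. The epithelial markers of the C1q class summed to 954, 98.2 and 17578 CPM, with 4, 3 and 8 of 8 detected, and Sftpc stood at 543, 18.7 and 15714 CPM. A single knockout plus drug C1q cell with 20 or more Sftpc UMIs held 15 of the 47 Tfrc UMIs, and the other 51 cells stood at 29.98 (20.5 to 42.3) CPM. The part of epithelial RNA in the rest was not tested.

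Fth1 and Ftl1 encode the heavy ferritin chain, which oxidises ferrous iron, and the light chain, which helps to form the mineral core. Fth1 lies on chromosome 19 (ENSMUSG00000024661) and Ftl1 on chromosome 7 (ENSMUSG00000050708), and a near-identical copy of Ftl1 that the files list as Ftl1-ps1 stood at 9.39 to 146 CPM, so its reads cannot be placed with certainty. In C1q cells Fth1 stood at 29093 (28702 to 29488), 49002 (48341 to 49670) and 30949 (30635 to 31266) CPM. It was highest in the irradiated wild-type library, by 1.68-fold (1.65 to 1.72) over the non-irradiated and 1.58-fold (1.56 to 1.61) over the knockout plus drug library, and 68.4% of its irradiated wild-type UMIs lay in 3 cells. Ftl1 stood at 9933, 20281 and 19176 CPM, 2.04-fold (1.98 to 2.11) higher after irradiation. The 3 cells of most UMIs of the gene in each library are 3 of 11 irradiated wild-type but 3 of 69 non-irradiated C1q cells. Without them the log2 ratio after irradiation was 0.21 in place of 1.03 for Ftl1 and 0.55 in place of 0.75 for Fth1. Neither was then called. With stricter class thresholds, too, both calls were lost, at 0.57 and 0.52. The same thresholds ended the lower call of Fth1 in the knockout plus drug library, at -0.40 in place of -0.66. Alveolar macrophage markers of the class (Chil3, Ear1, Ear2, Marco and Siglecf) were all detected in each library and summed to 357, 7000 and 1371 CPM, and Fth1 stood at 34765, 57717 and 42061 CPM in its 5, 5 and 19 cells with 3 or more UMIs of Chil3, Ear2 and Marco, against 27827, 41408 and 16918 CPM in the others. Their part in the difference was not tested.

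Ferritin varied less between libraries in most other classes. Fth1 stood at 10277, 9278 and 10720 CPM in fibroblasts, 5120, 4600 and 4834 CPM in T cells, 4572, 4211 and 4858 CPM in epithelial cells and 6580, 5164 and 6069 CPM in B cells. In each of these 4 classes the irradiated wild-type value was the lowest, by 1.09-fold to 1.27-fold against the non-irradiated library, and none was called. The direction against the non-irradiated library turned in 4 of 12 alternative ways of processing in T cells and in 2 of 12 in epithelial cells. It turned in 0 of 12 in B cells and fibroblasts. Ftl1 made up 20.4% to 22.4% of the ferritin UMIs in fibroblasts and 36.6% to 42.6% in epithelial cells, the lowest and the highest shares of the 6 classes.

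Endothelial Fth1 depended on which cells were counted. The whole class had 4905, 5679 and 5248 CPM. Cells with Cdh5 and no Ptprc had 3673 (3641 to 3704), 1656 (1550 to 1768) and 2206 (2128 to 2286) CPM, so that Fth1 was 2.22-fold (2.08 to 2.37) lower in the irradiated wild-type library, and was the 1 of 8 tested members called lower there. The background of these cells was 6.52% of all genes higher and 21.5% lower. The same direction was seen in those of them with 2 or more UMIs of Car4 and Ednrb, markers of gas-exchange capillary cells, at 2901, 1620 and 2517 CPM, and in those without either, at 4528, 1694 and 1803 CPM. Ftl1 did not follow, at 1637, 1559 and 1672 CPM. Sftpc stood at 3115, 23.9 and 92.5 CPM in the same cells, and its part, or that of other free RNA, in the Fth1 value was not tested. Against irradiated wild-type cells the knockout plus drug cells had Ncoa4 and Lpcat3 called higher and no member lower of 8, with 11.9% of all genes higher and 5.47% lower.

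**Figure D4:**
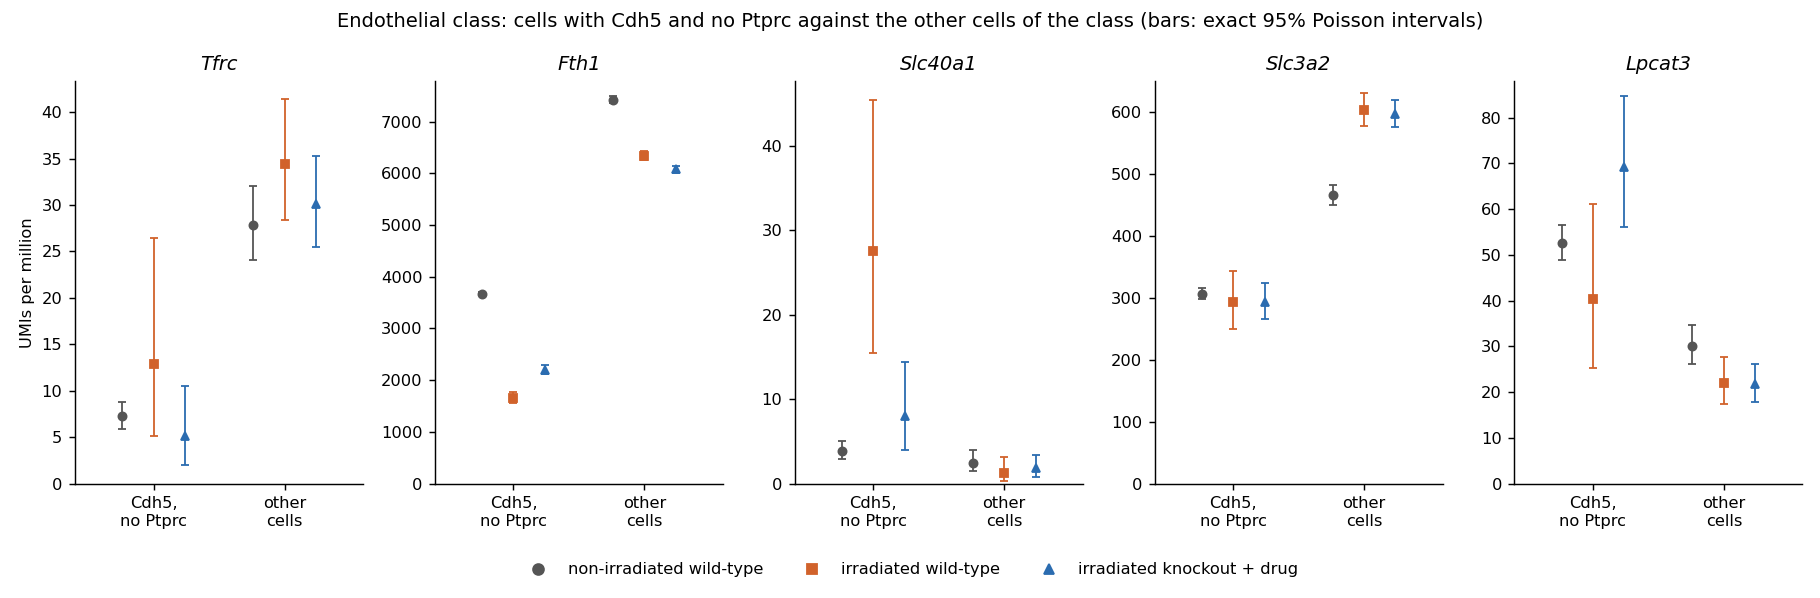
CPM of Tfrc, Fth1, Slc40a1, Slc3a2 and Lpcat3 (vertical axes, linear from 0) in the endothelial class, divided into cells with Cdh5 and no Ptprc and the other cells of the class, for the 3 libraries; bars are exact 95% Poisson intervals. Fth1 stands at 3673, 1656 and 2206 CPM in the former, and Slc3a2 near 300 CPM there in all 3 libraries against 465 to 604 CPM in the other cells.

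Within T cells Fth1 differed more between lineages than between libraries. Cells with Trdc alone, the gamma delta receptor gene, had 7278, 6637 and 7101 CPM, those with Cd4 alone 4654, 4174 and 4026 CPM, and those with Cd8a or Cd8b1 alone 4062, 2692 and 3337 CPM. The ratio of Trdc to Cd8 cells was 1.79 (1.76 to 1.83), 2.47 (2.41 to 2.52) and 2.13 (2.10 to 2.15). Cd8 cells had 1.51-fold (1.47 to 1.54) less Fth1 in the irradiated wild-type than in the non-irradiated library, whereas Trdc cells differed by 1.10-fold (1.08 to 1.12). Trdc cells were 19.8%, 29.9% and 29.6% of the class.

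**Figure D5:**
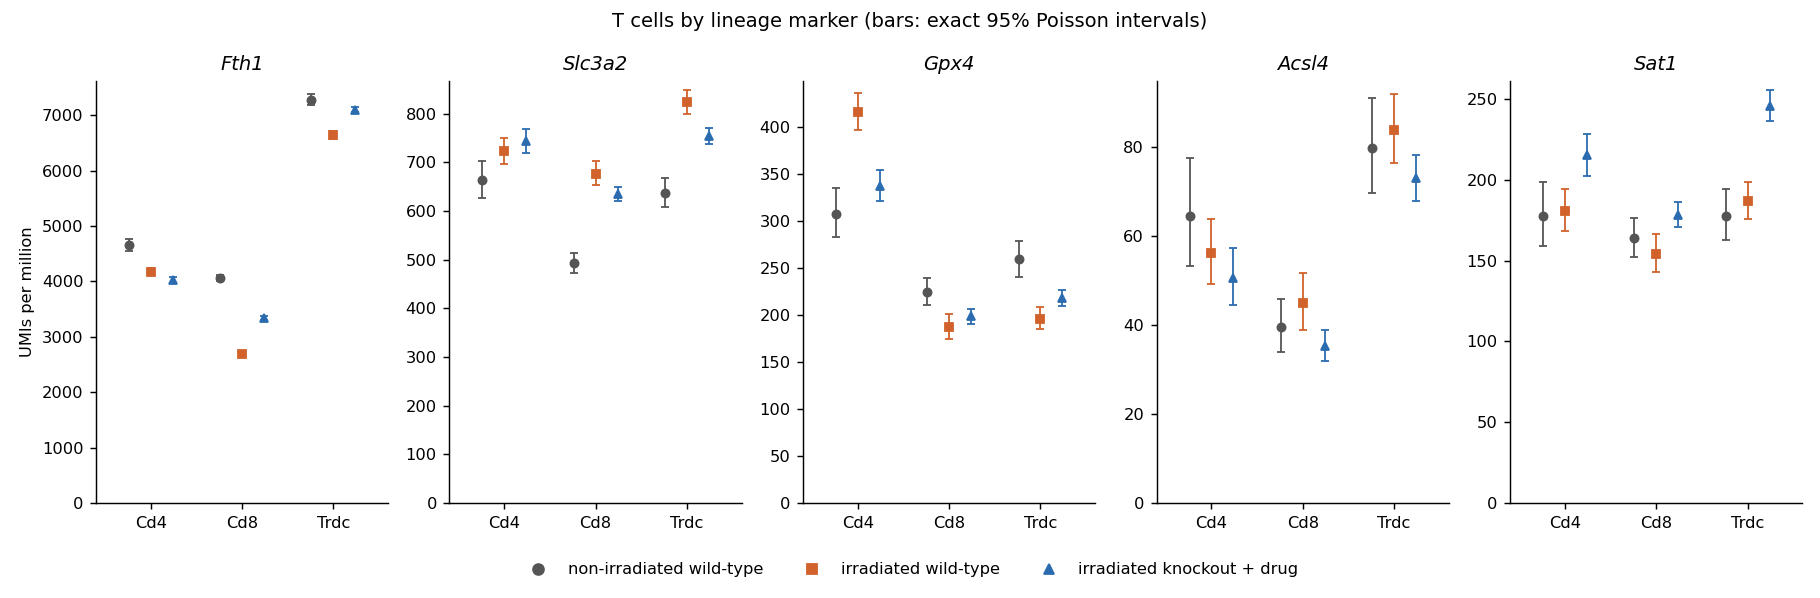
CPM of Fth1, Slc3a2, Gpx4, Acsl4 and Sat1 (vertical axes, linear from 0) in T cells that carry only Cd4, only Cd8a or Cd8b1, or only Trdc among these markers, for the 3 libraries; bars are exact 95% Poisson intervals. Fth1 is highest in Trdc cells (7278, 6637 and 7101 CPM), and Gpx4 is highest in Cd4 cells in each library.

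Ncoa4, on chromosome 14 (ENSMUSG00000056234), encodes the receptor that delivers ferritin to lysosomes for breakdown. It stood between 28.6 and 44.7 CPM in T, B, endothelial and fibroblast cells of every library, with no call there. Endothelial cells with Cdh5 and no Ptprc had 39.1, 27.5 and 44.4 CPM, from 15 and 61 UMIs in the irradiated libraries, and the knockout plus drug value was the one called higher above, with a ratio of 1.61 (0.906 to 3.06). In C1q cells it was at 31.7 (20.1 to 47.6), 149.7 (115 to 191) and 108 (90.0 to 128) CPM, 4.72-fold (2.89 to 7.97) higher after irradiation, with 89.1% of the 64 irradiated wild-type UMIs in 3 cells. The 3 cells of most Ncoa4 UMIs in each library are 3 of 11 irradiated wild-type but 3 of 69 non-irradiated C1q cells. Without them the log2 ratio was 0.29 in place of 2.08. In epithelial cells it stood at 16.8 (13.7 to 20.3), 33.9 (27.1 to 41.9) and 22.0 (16.97 to 28.0) CPM, called 2.02-fold (1.501 to 2.71) higher after irradiation. With cells thinned to 1000 UMIs that log2 ratio was -0.25 in place of 0.84, from fewer UMIs than a call needs. Without cells of more than 1 class it was 1.42. The call was kept in 7 of 12 alternative ways of processing.

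Slc40a1, on chromosome 1 (ENSMUSG00000025993), encodes ferroportin, the iron exporter. Its highest level among the whole classes was in the fibroblasts, at 8.78 (7.82 to 9.82), 10.4 (7.58 to 13.8) and 14.02 (11.7 to 16.6) CPM, where 6.41%, 7.78% and 11.3% of cells held a UMI. In T cells the share was 0.538%, 0.187% and 0.274%, at median depths of 6828, 6614 and 6914 UMIs against 7361.5, 8224.5 and 7910 in fibroblasts. With cells thinned to 1000 UMIs the shares were 0.916%, 1.23% and 1.51% in fibroblasts and 0.0539%, 0.0374% and 0.0196% in T cells. Fibroblasts with Npnt or Ces1d, genes of alveolar fibroblasts, carried 9.92, 11.7 and 16.1 CPM, and the other fibroblasts 1.12, 3.91 and 1.51 CPM, from 5, 3 and 2 UMIs. The ratio between these was 8.89 (3.77 to 27.6) and 10.6 (2.89 to 88.8) in the non-irradiated and knockout plus drug libraries and 2.99 (0.959 to 15.1) in the irradiated wild-type library. The knockout plus drug level in fibroblasts was 1.60-fold (1.29 to 1.96) the non-irradiated one, which is a smaller difference once 5 CPM are added and is not called.

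Endothelial Slc40a1 was at 3.38, 4.93 and 3.13 CPM in the whole class. Cells with Cdh5 and no Ptprc had 3.83 (2.87 to 4.99), 27.5 (15.4 to 45.4) and 8.01 (4.001 to 14.3) CPM, from 54, 15 and 11 UMIs, too few in the irradiated libraries for a call. The irradiated wild-type ratio to the non-irradiated library was 7.20 (3.77 to 12.9), and 40% of its 15 UMIs lay in 3 cells. Of those 15 UMIs 12 were in cells with 2 or more UMIs of Car4 and Ednrb. The 27.5 CPM stood above the 10.4 CPM of fibroblasts in the irradiated wild-type library, the highest of the whole classes there. C1q cells, although macrophages are known for iron export, held 1, 1 and 0 Slc40a1 UMIs in 69, 11 and 52 cells.

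Slc3a2, on chromosome 19 (ENSMUSG00000010095), encodes the heavy chain that pairs with Slc7a11 to import cystine and with other light chains to import large amino acids. T cells stood at 576 (564 to 589), 784 (772 to 796) and 739 (731 to 747) CPM. Both irradiated libraries lay above the non-irradiated one, irradiated wild-type by 1.36-fold (1.32 to 1.40), which does not reach the threshold. The ratio was 1.37 (1.30 to 1.45) in Cd8 cells, 1.29 (1.22 to 1.36) in Trdc cells and 1.09 (1.02 to 1.17) in Cd4 cells. In the endothelial class Slc3a2 was called 1.56-fold (1.49 to 1.64) higher after irradiation, at 359, 560 and 532 CPM. In cells with Cdh5 and no Ptprc it stood at 306, 294 and 294 CPM, with a ratio of 0.959 (0.814 to 1.12). The other cells of the class, at 465, 604 and 597 CPM, had the higher level. In epithelial cells it was at 179 (169 to 190), 238 (219 to 257) and 282 (263 to 302) CPM, the knockout plus drug value being 1.57-fold (1.44 to 1.72) the non-irradiated one.

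Its partner Slc7a11 was most abundant in C1q cells, at 641, 456 and 122 CPM, and was called lower there in the knockout plus drug library. C1q cells also had less Slc3a2 in both irradiated libraries, at 586 (531 to 644), 407 (349 to 472) and 354 (321 to 390) CPM, with no call in either comparison. The irradiated wild-type class was 11 cells. The log2 ratio after irradiation was -0.52, but -0.97 without cells of more than 1 class and 0.33 with thinned cells. It was called in 4 of 12 alternative ways of processing. In T cells Slc7a11 was at 21.0, 3.95 and 8.43 CPM and the large amino acid light chain Slc7a5 at 32.6, 47.1 and 33.0 CPM. Slc7a11 was highest and lowest there in the same libraries as Sftpc (2669, 84.2 and 290.3 CPM), and the part of free RNA was not tested.

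Gpx4, on chromosome 10 (ENSMUSG00000075706), encodes the selenoenzyme that reduces lipid hydroperoxides in membranes. Epithelial cells had the highest Gpx4 of the 6 classes in each library, at 531 (513 to 549), 666 (634 to 698) and 817 (785 to 851) CPM, although the interval of the ratio to C1q cells included 1 in both irradiated libraries. No step between these libraries was called, but from the non-irradiated to the knockout plus drug library the ratio was 1.54 (1.46 to 1.62). In Sftpc-high cells Gpx4 was at 583, 707 and 1259 CPM, and the knockout plus drug value was 1.78-fold (1.59 to 1.99) the irradiated wild-type value, from 35 and 20 cells, with 32.3% and 63.3% of the UMIs in 3 cells. In the other epithelial cells it was at 453, 651 and 642 CPM, both irradiated libraries standing above the non-irradiated one.

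B cells had the lowest Gpx4 of the 6 classes, at 181 (172 to 191), 114 (103 to 126) and 154 (144 to 164) CPM. The irradiated wild-type value was called 1.59-fold (1.42 to 1.78) lower than the non-irradiated one. Without cells of more than 1 class the log2 ratio was -0.51 in place of -0.64, short of the threshold. The share of B cells with a UMI was 49.2%, 36.8% and 46.4%, and 12.6%, 7.71% and 12.1% after thinning. All 3 measures, which come from the same UMIs, place the irradiated wild-type library lowest. Sftpc stood at 3305, 993 and 1564 CPM in B cells, and 20.5%, 10.9% and 16.6% of them met another class rule. The part of free RNA or mixed cells in the Gpx4 difference was not tested. Both plasma cell markers, Jchain and Mzb1, were detected and summed to 110.4, 339 and 217 CPM, and their part in the difference was not tested. In C1q cells Gpx4 was at 331 (290 to 375), 639 (565 to 719) and 795 (746 to 847) CPM, called 1.93-fold (1.62 to 2.31) higher after irradiation, while with thinned cells the log2 ratio was 0.49 in place of 0.94, with no call. Fibroblasts (429, 408 and 408 CPM), T cells (262, 264 and 244 CPM) and the endothelial class (348, 346 and 349 CPM) differed by at most 1.08-fold between any of the libraries that were compared. Endothelial cells with Cdh5 and no Ptprc had 346, 290.1 and 341 CPM, a ratio of 0.838 (0.711 to 0.982) after irradiation. Among T cells the Cd4 subset had the most, at 308, 415 and 337 CPM, and its ratio to Cd8 cells was 1.37 (1.23 to 1.52), 2.22 (2.04 to 2.42) and 1.70 (1.59 to 1.81).

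Acsl4 and Lpcat3 act in turn: the first joins polyunsaturated fatty acids such as arachidonic acid to coenzyme A, and the second puts them into membrane phospholipids. Acsl4 lies on the X chromosome (ENSMUSG00000031278) and Lpcat3 on chromosome 6 (ENSMUSG00000004270). Epithelial cells had the highest Acsl4 in each library, at 156 (146 to 166), 106 (94.0 to 120) and 96.1 (85.2 to 108) CPM. The irradiated wild-type value was 1.46-fold (1.28 to 1.68) below the non-irradiated one, short of the threshold. As with Tfrc the level followed Sftpc, at 238, 262 and 209 CPM in Sftpc-high and 32.5, 51.7 and 51.1 CPM in the other epithelial cells. The ratio of these subsets was 7.32 (5.84 to 9.28), 5.08 (3.93 to 6.59) and 4.10 (3.21 to 5.26), and within the other epithelial cells both irradiated libraries were higher than the non-irradiated one, irradiated wild-type by 1.59-fold (1.17 to 2.16). In Sftpc-high cells that ratio was 1.10 (0.931 to 1.30), so the class as a whole stood lower although neither subset did, with Sftpc-high cells at 51.6% and 16.9% of the class.

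Among T cells Acsl4 was highest in Trdc cells, at 79.9, 83.9 and 73.0 CPM, and 1.87-fold to 2.07-fold above Cd8 cells. B cells had the lowest Acsl4 of the 6 classes, at 20.2, 20.5 and 16.6 CPM. Fibroblasts stood at 33.5 (31.6 to 35.5), 38.7 (33.2 to 44.96) and 45.5 (41.3 to 50.05) CPM. Endothelial cells with Cdh5 and no Ptprc had 55.1, 67.9 and 56.8 CPM, with intervals that overlap. None of the Acsl4 class values was called in either comparison.

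Lpcat3 was low throughout, at 15.8 to 56.1 CPM. In the non-irradiated library the endothelial class had the highest value, at 45.2 (42.3 to 48.1) CPM, followed by 24.7 (19.9 to 30.1) in the irradiated wild-type and 31.9 (27.7 to 36.6) in the knockout plus drug library. The irradiated wild-type value was called 1.83-fold (1.48 to 2.29) lower. With Cdh5 and no Ptprc the levels were 52.5, 40.4 and 69.2 CPM, from 22 UMIs in irradiated wild-type cells, and the ratio of 0.769 (0.479 to 1.17) includes no difference. Against irradiated wild-type the knockout plus drug cells stood 1.71-fold (1.07 to 2.86) higher in that subset. Epithelial cells and fibroblasts differed between the libraries by less than the call, at 30.7, 34.7 and 28.1 CPM and at 27.8, 26.3 and 28.7 CPM.

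Sat1, on the X chromosome (ENSMUSG00000025283), encodes the enzyme that acetylates spermidine and spermine, and is a target of p53. C1q cells had the highest level, at 426 (380 to 476), 842 (757 to 934) and 577 (535 to 622) CPM, called 1.98-fold (1.69 to 2.31) higher after irradiation, with 80.0% of the irradiated wild-type UMIs in 3 cells. The 3 cells of most Sat1 UMIs in each library are 3 of 11 irradiated wild-type but 3 of 69 non-irradiated C1q cells. Without them the log2 ratio was 0.08 in place of 0.97, with no call. In T cells, B cells, epithelial cells and the endothelial class as a whole the knockout plus drug library stood highest, while fibroblasts were highest in the irradiated wild-type library: T cells were at 183, 175 and 215 CPM, B cells at 259, 238 and 317 CPM, and the endothelial class at 250.3, 234 and 299 CPM. The ratio to irradiated wild-type was 1.23 (1.19 to 1.28), 1.33 (1.22 to 1.45) and 1.28 (1.18 to 1.38) in these, and none was called. The endothelial order turned in cells with Cdh5 and no Ptprc, at 228, 303 and 283 CPM, where irradiated wild-type was 1.33-fold (1.13 to 1.55) the non-irradiated value and the knockout plus drug ratio to it was 0.933 (0.776 to 1.13), with 32.7% of the 165 irradiated wild-type UMIs in 3 cells. Trdc cells carried 178, 187 and 246 CPM. Another p53 target, Cdkn1a, an inhibitor of the cell cycle, stood at 196, 617 and 567 CPM in epithelial cells and 130, 346 and 256 CPM in fibroblasts, where Sat1 was at 245, 252 and 299 CPM and at 194, 228 and 218 CPM.

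The wider pathways were followed through 7 lists, with calls summed over the 6 classes. After irradiation 7.78% of all gene and class combinations were higher and 13.8% lower, and in the knockout plus drug library 4.41% were higher and 3.60% lower. The cystine and glutathione list had 9 of 46 higher and 6 lower after irradiation, and 4 of 45 higher and 5 lower in the other comparison. Its higher calls were most numerous in epithelial cells, 4 of 9 with 1 lower, where 16.7% of all genes were higher and 11.3% lower. Among them were Gclm, a subunit of glutathione synthesis, at 65.0, 160 and 132 CPM and Chac1, which degrades glutathione, at 3.29, 12.8 and 19.3 CPM. Sftpc-high cells were 51.6%, 16.9% and 18.4% of that class, and the part of this shift was not tested. In the endothelial class 3 of 8 were higher, beside 12% of all genes. With Cdh5 and no Ptprc 0 of 4 were, beside 6.52%. The lipid peroxide defence list had 5 of 48 higher and 7 lower, then 6 of 47 higher and 3 lower. Gpx3, the secreted glutathione peroxidase, was called lower in 5 classes after irradiation but not in fibroblasts, its main source here, at 1419, 1833 and 2075 CPM. In T cells, at 135, 24.95 and 41.9 CPM, it was highest and lowest in the same libraries as Sftpc (2669, 84.2 and 290.3 CPM), and the part of free RNA was not tested.

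The membrane lipid supply and oxidation list had 3 of 82 higher and 21 lower after irradiation, 9 of them among 17 tested in the endothelial class, where 26.1% of all genes were lower, and 10 of 83 higher and 4 lower in the other comparison. Fads1, a fatty acid desaturase, stood at 45.8, 11.4 and 13.8 CPM in the endothelial class, beside endothelial markers of 5763, 1423 and 2170 CPM and T cell markers of 361, 1636 and 1831 CPM, whose part was not tested. With Cdh5 and no Ptprc it was at 52.4, 25.7 and 20.4 CPM, from 14 and 28 UMIs in the irradiated libraries, and 5 of 13 genes of the list were lower and 0 higher after irradiation, where 21.5% of all genes were lower. Scd1, which makes monounsaturated fatty acids, stood at 97.1, 15.5 and 14.3 CPM in T cells. Sftpc stood at 2669, 84.2 and 290.3 CPM in the same cells, and the part of free RNA in the Scd1 values was not tested. The iron and haem uptake and breakdown list had 10 of 78 higher and 18 lower, then 5 of 69 higher and 5 lower. In C1q cells 4 of 9 of its genes were higher and none lower after irradiation, where 14.9% of all genes were higher and 24.6% lower. Among the 4 were Trf, transferrin, at 156, 524 and 431 CPM and Blvra, a biliverdin reductase, at 22.1, 77.2 and 70.2 CPM. The irradiated wild-type C1q class was 11 cells, and the alveolar macrophage markers of the class summed to 357, 7000 and 1371 CPM. The part of these markers' cells in the difference was not tested. In fibroblasts Hmox1, which opens haem to release iron, stood at 75.2, 132 and 78.1 CPM, called higher after irradiation and lower in the knockout plus drug library. The 4 haemoglobin genes summed to 1907, 3239 and 153 CPM there, and their part was not tested.

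The iron storage, export and regulation list had 5 of 93 higher and 18 lower, then 10 of 92 higher and 8 lower. Cp, the ferroxidase that works beside ferroportin, was at 73.5, 290.1 and 133 CPM in epithelial cells, higher and then lower. Bmp6, the endothelial signal that raises hepcidin, was at 229, 19.5 and 39.1 CPM in the endothelial class, whose endothelial markers also stood lower, and at 307, 103 and 130 CPM in cells with Cdh5 and no Ptprc. Lcn2, which binds iron-carrying siderophores, was at 106, 198 and 475 CPM in fibroblasts, where all 3 neutrophil markers of the list were detected and summed to 271, 56.7 and 2680 CPM. Ireb2, one of the proteins that bind the iron-responsive element, was called lower in B cells of the knockout plus drug library, at 47.1, 69.9 and 42.4 CPM.

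The polyamine list had 7 of 47 higher and 3 lower after irradiation and 2 of 48 higher and 1 lower in the other comparison. Odc1, which makes putrescine, stood at 363, 1556 and 1233 CPM in the endothelial class and at 2007, 2508 and 2114 CPM in T cells, whose markers in the endothelial class were at 361, 1636 and 1831 CPM. In cells with Cdh5 and no Ptprc Odc1 was at 119, 73.4 and 197 CPM, lower and not higher in the irradiated wild-type than in the non-irradiated library. The Slc3a2 light chains had 2 of 24 higher and 6 lower, then 2 of 21 higher and 3 lower.

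For each of the 10 genes the genes with the most similar pattern were sought by Pearson's r of log2(CPM + 5) over 18 points, the 6 classes in 3 libraries, among 5783 genes. The points share libraries, depth and free RNA and are few, so r is a description. Tfrc was most like Mbip (r = 0.89) and Azin1 (0.87), Acsl4 like Acot7 (0.95) and Baiap2 (0.87), and Lpcat3 like Sav1 and Rala (both 0.83). Fth1 was like Lrp12 (0.96), and Ftl1 like Cstb and Ctsz (both 0.97). Ncoa4 was like Zranb3 (0.90), Slc40a1 like Ccdc80 (0.94) and Calu (0.93), Slc3a2 like Srgn (0.98) and Cdc42se2 (0.97), Gpx4 like Etfb and Uqcr11 (both 0.95), and Sat1 like Atp6v0e (0.95) and Il18 (0.94).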

How the data were processed

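The authors deposited 1 matrix of UMI counts per library, not normalized; per the file headers the software version is 3.1.0 without a name, and per the submitters' processing notes the build is mm10. Every barcode has at least 500 UMIs. Barcodes with under 250 genes or over 15% UMIs of the 13 mitochondrial genes were left out. Doublets were kept, and removing those scored by Scrublet in scanpy 1.11.5 was an alternative. UMIs were summed per library and class and given as CPM with exact Poisson intervals; ratios have exact conditional 95% intervals, and a cell can belong to several classes. With 1 library per group no test was made. Library totals were 85984536, 45800421 and 76667310 UMIs, so 1 UMI was worth 0.0238 to 2.34 CPM depending on class. Named genes are the 10 members, up to 2 called genes per list, class and comparison with the largest log2 ratio, and the 2 genes most like each member, some of which are not reported here; Cdkn1a, Ftl1-ps1, and the values of Slc7a5 and Odc1 in T cells and of Gpx3 in fibroblasts were chosen after their values were seen. The members and lists were chosen with earlier results of these data known. The calculations (scipy 1.17.1 and numpy 2.4.6 under python 3.11.15, pandas 2.3.3, figures with matplotlib 3.10.9, random seed 1) were tested on simulated data.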

Additional observations from a re-analysis of the deposited data

Results flagged for a closer look

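Tfrc went opposite ways in different classes. After irradiation its log2 ratio was 0.94 in the endothelial class and -0.93 in epithelial cells, and in the knockout plus drug library it was 3.15 in C1q cells against -0.63 in fibroblasts and -0.80 in epithelial cells. The 3.15 is set against 0 UMIs and depends on the CPM added to both sides, being 5.33 with 1 CPM and 1.57 with 20 CPM. With thinned cells the -0.63 and -0.80 became 0.45 and 0.10, both from fewer UMIs than a call needs. Gpx4 stood at a log2 ratio of 0.94 in C1q cells and -0.64 in B cells after irradiation. These are differences between classes of single libraries and the difference was not tested. The endothelial Tfrc value comes with T cell markers of 361, 1636 and 1831 CPM in that class, and the C1q values with 11 irradiated wild-type cells.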

How the results depend on the processing

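Of 15 called values, 0 kept the call under every alternative and 4 had the other sign under 1 of them. With thinned cells, or without the 3 cells with the most UMIs, the minimum of UMIs for a call was kept. Low counts alone could therefore end a call in these settings. Slc3a2 in the endothelial class had a log2 ratio of -0.0599 with Cdh5 and no Ptprc. With cells thinned to 1000 UMIs Ncoa4 in epithelial cells was at -0.25, and Tfrc in the knockout plus drug comparison at 0.45 in fibroblasts and 0.10 in epithelial cells. Each of these thinned values came from fewer UMIs than a call needs. Another 15 values that were not called were called under at least 1 alternative. After irradiation 8 higher calls became 5 with stricter class thresholds, 3 with thinned cells, 3 without the 3 cells with the most UMIs and 2 at a ratio of at least 2. The 3 lower calls became 5 without cells of more than 1 class, with thinned cells, with cells without Y-linked UMIs and with median-of-ratios scaling, 6 without the 3 cells with the most UMIs, and 0 at a ratio of at least 2. In the knockout plus drug comparison the 1 higher call became 3 without cells of more than 1 class or with the endothelial restriction, and 2 with every cell weighing the same, thinned cells, cells without Y-linked UMIs or without the 3 cells with the most UMIs. The 3 lower calls became 7 without cells of more than 1 class, 5 with stricter thresholds or cells without Y-linked UMIs, 1 with thinned cells, with 20 CPM added or without the 3 cells with the most UMIs, and 0 at a ratio of at least 2. The cause of these changes was not tested. No paired analysis was possible because each group has 1 library.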
